A study of Mus musculus with 6 samples.

Results

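Enteroendocrine cells are rare hormone-secreting cells scattered through the lining of the gut. They arise from crypt progenitors that transiently express the transcription factor Neurog3, pass through stages marked by Neurod1, Pax4, Isl1, Rfx6 and related factors, and then make a particular set of peptides. Hormones are stored with granins such as chromogranin A (Chga) in dense-core granules and released on a nutrient or chemical stimulus. The genes described here are 39 hormone, regulator, granule and marker genes of this lineage, of 55331 genes listed, chosen by name and matched by symbol. All 39 were tested by the authors, and none was left out for a low value. The same names matched 66 splicing events in 24 genes, of 61715 events in all.

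The libraries hold messenger RNA of unsorted crypt cells, released with EDTA from small intestine after the villi were scraped away, from C57BL/6 mice aged 60 days: 3 libraries labelled WT and 3 labelled PTBP1_KO. WT carried Ptbp1f/f, alleles flanked by recombination sites without a recombinase, and PTBP1_KO carried Ptbp1f/f;Vil-creER+/-, in which villin sequence drives a tamoxifen-dependent recombinase in gut epithelium. Tamoxifen was given to WT and PTBP1_KO mice alike, at 100 mg/kg in each of 2 injections, and cells were taken 20 h after the last. The villin driver acts in epithelium and not in other cells of the gut wall. The labels do not say how many mice gave each library, so p-values measure the spread between these libraries, which may be technical. PTBP1 is an RNA-binding protein that represses and activates alternative exons. The comparison asks how levels and splicing differ between PTBP1_KO and WT. Only PTBP1_KO carried the recombinase, so its presence and the loss of Ptbp1 cannot be told apart.

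The gene table gives 1 FPKM value per group (fragments scaled to transcript length and to library size), so a level carries no error of its own and its depth is unknown. Ptbp1 itself was at 230.0 FPKM in WT against 122.8 in PTBP1_KO, 53.4% of the WT level, over the whole gene. In the splicing tables, the 6 libraries held 32226951 to 39774266 reads summed over skipped exon events. Those tables name a first and a second set of 3 libraries without their genotype.

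The marker genes of the lineage were present in both groups. Chga was at 72.4 FPKM in WT against 86.1 in PTBP1_KO, a level above that of 91.4% of the 15460 tested genes in WT. Neurog3 was at 4.29 FPKM in WT against 3.42 in PTBP1_KO. The cells were not sorted, so the values are those of a mixture in which fewer cells of a type and less RNA per cell cannot be told apart.

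Gcg and Nts were higher in PTBP1_KO and Rims2 was lower, and the other 36 genes did not pass the threshold of q below 0.05. Gcg encodes proglucagon, the precursor of the glucagon-like peptides, and rose 1.70-fold. Nts encodes neurotensin and rose 1.83-fold. Rims2 encodes a scaffold of the vesicle release site and fell to 0.372 times its WT level. The 3 called genes are 7.69% of the 39, beside 0.537% of all tested genes called in either direction, 0.388% called higher and 0.149% called lower. The 39 genes were chosen with earlier results of these data known, so these shares describe the list and do not measure an excess. At an unadjusted p below 0.05 the count was 4 genes, or 10.3%, beside 4.35% of all tested genes. The median log2((PTBP1_KO + 1)/(WT + 1)) of the 39 genes was 0.07, beside 0.02 over all tested genes. Values were higher in PTBP1_KO for 26 of the 39 and for 54.7% of all tested genes.

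The sequence upstream of the RefSeq start is shown for Gcg and Nts, the 2 hormone genes that passed the test. RefSeq gives 250 bases before the start of each on GRCm38.p6, both on the minus strand. Gcg is printed whole (chr2:62483654-62483903), and Nts up to 39 bases before its start (chr10:102490457-102490668), 212 bases, because a GENCODE M21 transcript of Nts starts 68 bases upstream of the RefSeq start. The last 30 bases printed for Nts lie within that transcript. Capitals mark matches to TGANNTCA or to TGANTCA (the form of an AP-1 element), searched on both strands. N stands for any base, so a match to TGANNTCA is not by itself a cyclic AMP response element. The matches to it were TGAAATCA for Gcg and TGACATCA for Nts.
Gcg: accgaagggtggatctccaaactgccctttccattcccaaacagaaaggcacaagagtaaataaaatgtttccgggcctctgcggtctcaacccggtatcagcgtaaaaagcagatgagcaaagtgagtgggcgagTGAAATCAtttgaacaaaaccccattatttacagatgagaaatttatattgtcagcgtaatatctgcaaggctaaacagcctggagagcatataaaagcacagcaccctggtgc
Nts: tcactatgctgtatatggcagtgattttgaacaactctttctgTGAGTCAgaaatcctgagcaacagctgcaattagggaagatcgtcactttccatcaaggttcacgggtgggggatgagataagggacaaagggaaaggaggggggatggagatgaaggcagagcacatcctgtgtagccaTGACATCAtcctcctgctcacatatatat

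TGANNTCA was matched once in each window of 250 bases. It lay from 114 to 107 bases before the RefSeq start of Gcg and from 67 to 60 bases before that of Nts. The Nts match lies within the GENCODE M21 transcript that starts 68 bases upstream, so it is upstream of the RefSeq start only. The Gcg match is upstream of both starts. TGANNTCA was found in 11.9% of 32851 promoters of this length and in 11 of 39 promoters listed for 32 of the genes described here. TGANTCA was matched once for Nts and not for Gcg, and 6.75% of all promoters held it. CANNTG, the core bound by basic helix-loop-helix factors such as Neurog3 and Neurod1, was matched 3 times for Gcg and once for Nts, and 66.2% of all promoters held it. One of the Gcg matches overlaps the TGANNTCA match by 2 bases. A match of letters is a description and not a binding site, and the motifs were chosen after the sequences had been read.

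None of the 10 transcription factors passed the test. Of these, 6 had a lower and 4 a higher value in PTBP1_KO, and their median log2 ratio was -0.06. Neurog3, which commits a crypt cell to the endocrine lineage, had the values given above, with a log2 fold change of -0.33 and p = 0.372 in the authors' deposited table. Nkx2-2, a homeodomain factor of several endocrine fates, was at 5.68 FPKM in WT against 4.40 in PTBP1_KO (p = 0.0918, the authors' deposited table). Neurod1, a direct successor of Neurog3, had 3.62 and 3.42 FPKM. All 3 of these factors had a lower value in PTBP1_KO, none of them past the threshold.

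Among the other factors, Pax4 had the largest log2 fold change. Pax4 is a paired-domain factor, and was at 0.878 FPKM in WT against 1.29 in PTBP1_KO (p = 0.174, the authors' deposited table). Fev, a factor of serotonin-producing cells, had 3.09 and 3.42 FPKM, and Insm1, a zinc finger regulator of endocrine differentiation, had 2.98 and 2.81 FPKM. Pax6, which activates the Gcg and Gip genes, had 2.16 and 2.03 FPKM. Rfx6 had 1.89 and 1.65 FPKM, the LIM homeodomain factor Isl1 had 1.77 and 1.98 FPKM, and Lmx1a, another LIM homeodomain factor, had 0.520 and 0.522 FPKM. In the authors' deposited table the log2 fold changes of the 10 ran from -0.37 for Nkx2-2 to 0.55 for Pax4.

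**Figure D1:**
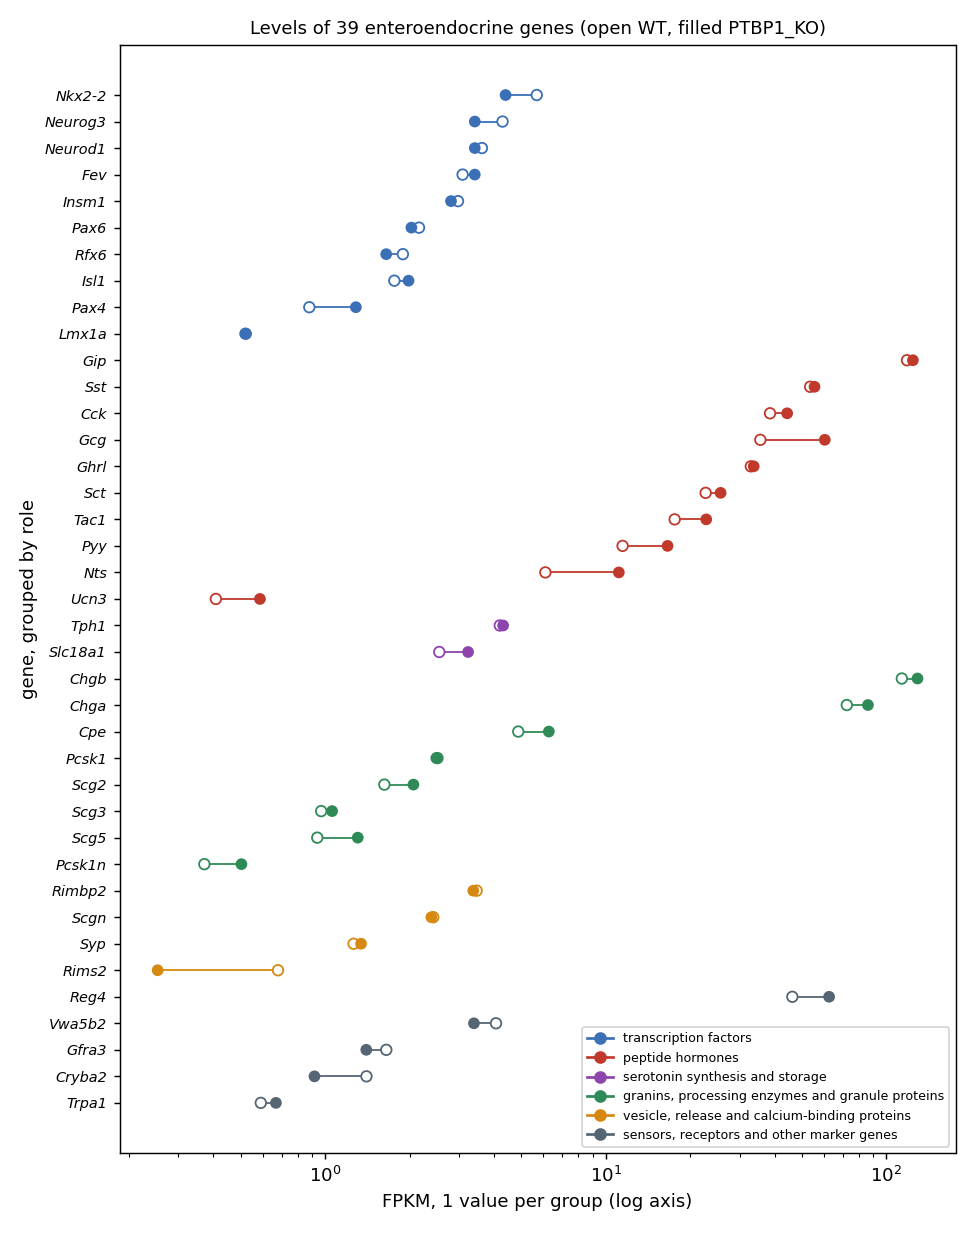
Level of each of the 39 genes as FPKM on a log axis, open circles for WT and filled circles for PTBP1_KO, coloured and grouped by role, with 1 value per group and no error. Gip is highest in WT at 119 FPKM, Reg4 lies among the hormones and chromogranins of high level, Ucn3 lies near the bottom, and the longest lines among genes above 5 FPKM in both groups are those of Nts and Gcg.

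All 10 peptide hormone genes had a higher value in PTBP1_KO, and 2 of them, Gcg and Nts, passed the test. The median log2 ratio of the 10 was 0.18. Gcg (chr2:62474530-62483650, minus strand) was at 35.6 FPKM in WT against 60.4 in PTBP1_KO. The authors' deposited table gave it a log2 fold change of 0.76 (p = 5e-05, q = 0.0125). Nts (chr10:102481756-102490486, minus strand) was at 6.10 FPKM in WT against 11.1 in PTBP1_KO. The authors' deposited table gave it a log2 fold change of 0.87 (p = 2e-04, q = 0.0396). In WT, Gcg was the seventh highest of the 39 genes, and in PTBP1_KO the fifth.

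Gcg, Nts and Pyy are typical of L cells and their relatives, which are most frequent in the distal small intestine. Pyy encodes peptide YY, and was at 11.5 FPKM in WT against 16.6 in PTBP1_KO, with a log2 fold change of 0.53 and p = 0.132 in the authors' deposited table. The FPKM of the 3 genes summed to 53.2 in WT and 88.2 in PTBP1_KO, a ratio of 1.66. Their share of the FPKM of all 10 hormones was 15.8% in WT and 22.3% in PTBP1_KO. This grouping was made with the values of the called genes known and was not tested.

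Hormones of cells that are more frequent in the proximal small intestine differed less in value. Gip encodes the glucose-dependent insulinotropic peptide of K cells, and was at 119 FPKM in WT against 125 in PTBP1_KO. Cck, the cholecystokinin gene of I cells, had 38.5 and 44.4 FPKM. Ghrl, which encodes ghrelin, had 32.9 and 33.7 FPKM, and Sct, the secretin gene, had 22.7 and 25.7 FPKM. The 4 genes summed to 213 FPKM in WT and 228 FPKM in PTBP1_KO, a ratio of 1.07. The smallest p among the 4 in the authors' deposited table was 0.246, for Cck.

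Of the other hormones, Sst and Tac1 are made along the whole small intestine. Sst encodes somatostatin, which inhibits the release of other gut hormones, and was at 53.5 FPKM in WT against 55.5 in PTBP1_KO. Tac1 encodes substance P and neurokinin A, and had 17.6 and 22.8 FPKM, with p = 0.0687 in the authors' deposited table. Ucn3, the urocortin 3 gene, had 0.408 and 0.586 FPKM, with p = 0.217 in the authors' deposited table. In relation to Chga, the level of Gcg was 0.492 in WT and 0.702 in PTBP1_KO, whereas that of Gip was 1.64 and 1.45 and that of Sst 0.740 and 0.645. The ratios were 0.0842 and 0.129 for Nts, 0.159 and 0.193 for Pyy, 0.532 and 0.515 for Cck, and 0.455 and 0.391 for Ghrl. Chga itself had a higher value in PTBP1_KO, so the ratios of Gip, Sst, Cck and Ghrl fell although their FPKM values did not.

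**Figure D2:**
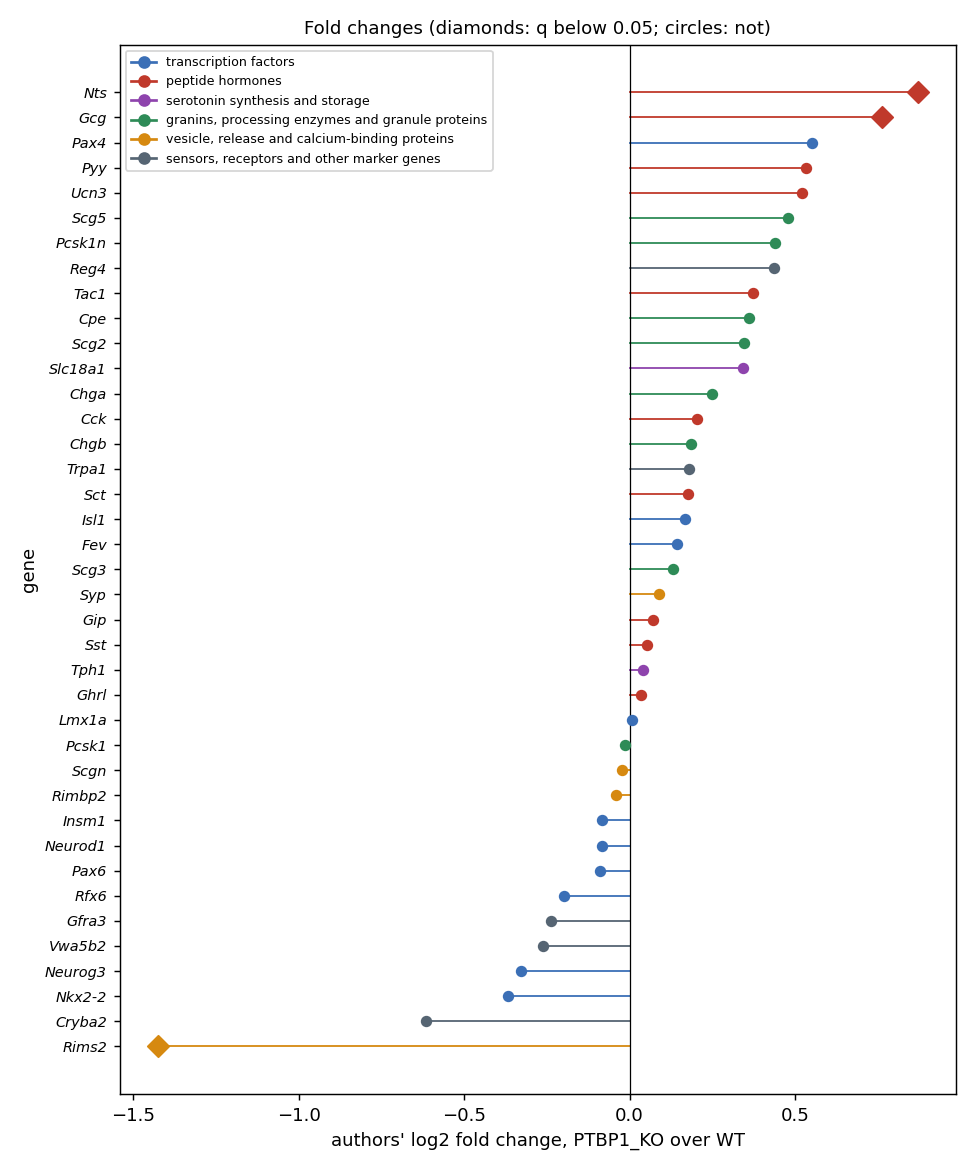
Log2 fold change of PTBP1_KO over WT in the authors' deposited table for each of the 39 genes, sorted, with diamonds for q below 0.05 and circles for the rest. Nts and Gcg are at the top, Rims2 is at the bottom with -1.43, and the hormone genes all lie to the right of 0.

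Genes that differ along the length of the gut were read beside the hormones. Of 8 regional genes, 7 were tested, 1 was called higher and 1 lower. Pdx1, a homeodomain factor of the duodenum and pancreas that is also active in endocrine cells, fell from 2.32 to 0.629 FPKM, with a log2 fold change of -1.88 and q = 0.0125 in the authors' deposited table. Slc10a2, the bile acid transporter of the ileum, rose from 3.82 to 6.06 FPKM, with a log2 fold change of 0.66 and q = 0.0125 in the authors' deposited table. Onecut2, a proximal factor, had 5.37 and 3.84 FPKM, with q = 0.156 in the authors' deposited table, and Fabp6, an ileal bile acid-binding protein, had 567 and 682 FPKM. Fabp1 had 2551 and 2470 FPKM, Gata4 58.7 and 49.3 FPKM and Osr2 68.5 and 71.4 FPKM, and Cyp8b1 was listed at 0 in both groups. The part of the sampled gut region in the values of Gcg, Nts and Pyy was not tested.

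**Figure D3:**
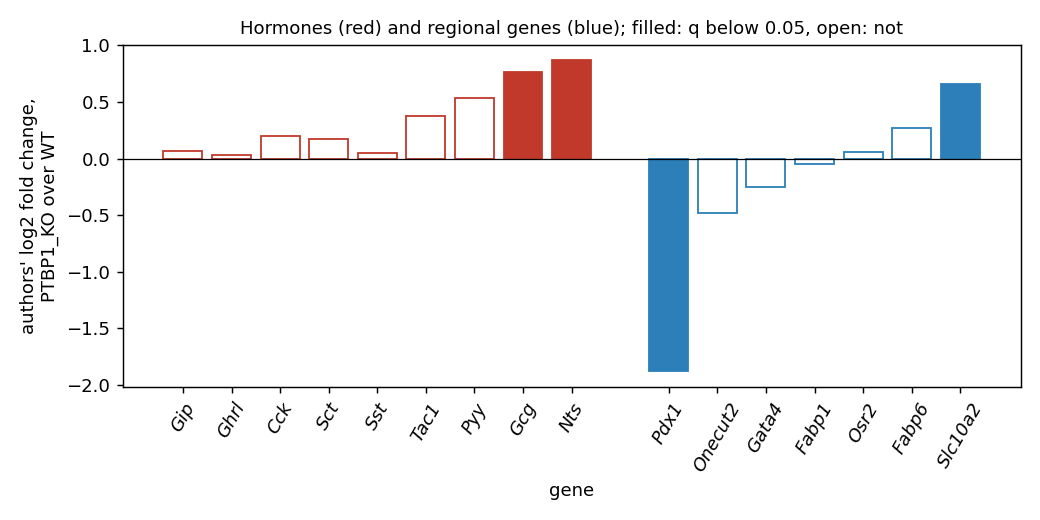
Log2 fold change of PTBP1_KO over WT in the authors' deposited table for 9 peptide hormone genes (red, without Ucn3, which is below 1 FPKM) and 7 genes that vary along the gut (blue), filled where q is below 0.05. Gcg and Nts are filled above 0 among the hormones, Slc10a2 is filled above 0 and Pdx1 is filled at -1.88.

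The read numbers of single libraries could be described for Gcg, without a genotype. A coding exon of Gcg (chr2:62476824-62476961) had between 596 and 1587 reads per library. In RPM, reads scaled to the library's total in the skipped exon table, the first set had 18.2, 41.6 and 39.9 and the second set had 21.6, 19.3 and 20.5. Of the 6, 2 libraries, both in the first set, were high, and the other 4 lay close together, with 1 library of the first set below all of the second. Cck had 15.0, 22.1 and 20.7 in the first set and 17.0, 16.7 and 17.2 in the second, in the same order of libraries, and the same 2 libraries were highest. Chgb varied less, from 697 to 895. Which genotype these libraries have was not stated, so the rise of Gcg was not traced to libraries. Nts has no event in the splicing tables, so it has no value per library.

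**Figure D4:**
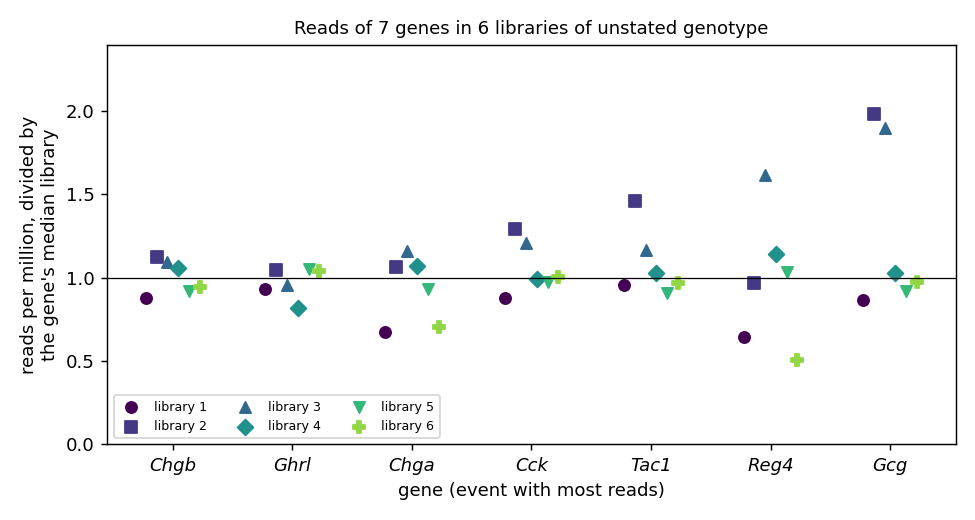
RPM in the event with most reads of 7 genes, divided by the median of the 6 libraries, 1 symbol per library, numbered in the order of the table columns and with no genotype stated. For Gcg 2 libraries lie near 2 on this axis and 4 near 1, and for Ghrl all 6 lie between 0.8 and 1.1.

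The genes of serotonin-producing enterochromaffin cells did not pass the test. Tph1, the rate-limiting enzyme of serotonin synthesis, was at 4.19 FPKM in WT against 4.31 in PTBP1_KO. Slc18a1, the vesicular monoamine transporter of these cells, had 2.55 and 3.23 FPKM, with p = 0.419 in the authors' deposited table. Both values were slightly higher in PTBP1_KO.

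Granins and processing enzymes had 7 of 8 values higher in PTBP1_KO, and none passed the test. Their median log2 ratio was 0.20. Chgb, which encodes chromogranin B, was at 114 FPKM in WT against 129 in PTBP1_KO, and was the highest of the 39 genes in PTBP1_KO. The authors' deposited table gave Chga a log2 fold change of 0.25 (p = 0.0862). Cpe, the carboxypeptidase that trims prohormones, had 4.88 and 6.27 FPKM, with p = 0.0776 in the authors' deposited table. Pcsk1, the convertase that cuts proglucagon into the glucagon-like peptides, had 2.51 and 2.49 FPKM.

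The other granule genes were low. Scg2, Scg3 and Scg5, which encode secretogranins and a chaperone of convertase 2, had 1.63 and 2.06 FPKM, 0.968 and 1.06 FPKM, and 0.937 and 1.31 FPKM in that order. Pcsk1n, an inhibitor of Pcsk1, had 0.371 and 0.503 FPKM and was the lowest of the 39 genes in WT. The smallest p among these 4 in the authors' deposited table was 0.187, for Scg5.

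Rims2 was the called gene among those for vesicle release. Rims2 (chr15:39198261-39684372, plus strand) was at 0.679 FPKM in WT against 0.253 in PTBP1_KO. The authors' deposited table gave it a log2 fold change of -1.43 (p = 1e-04, q = 0.0227). Both levels are below 1 FPKM, and the Rims2 splicing events had 0 to 10 reads per library, with means of at most 3.67. Rimbp2, whose protein binds RIM proteins at the same sites, had 3.47 and 3.37 FPKM, Syp, the vesicle protein synaptophysin, had 1.26 and 1.34 FPKM, and the calcium-binding protein gene Scgn had 2.43 and 2.39 FPKM. The smallest p among these 3 in the authors' deposited table was 0.760, for Syp.

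Of the 5 sensors, receptors and other marker genes, none was called. Reg4, a secreted lectin used as a marker of enteroendocrine cells, was at 46.3 FPKM in WT against 62.6 in PTBP1_KO (p = 0.00690, q = 0.432, the authors' deposited table). Its event with most reads varied from 19.2 to 61.7 RPM over the 6 libraries, a wider range than that of Gcg. Among 10 goblet and Paneth cell genes, which summed to 9974 FPKM in WT against 12160 in PTBP1_KO, Mmp7, Ang4 and Pnliprp2 were called higher, with 0.62, 0.85 and 0.84 as log2 fold changes by the authors' deposited table. Fcgbp had the lowest log2 fold change of that list in the authors' deposited table, -0.29. Of the 10 values, 7 were higher in PTBP1_KO and 3, those of Fcgbp, Tff3 and Agr2, were lower. Lyz1, of Paneth cells, was at 1471 FPKM in WT against 2470 in PTBP1_KO, and Muc2, of goblet cells, had 25.1 and 26.7 FPKM. The part of those cells in the Reg4 value was not tested.

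The other 4 marker genes were below 5 FPKM. Vwa5b2 was at 4.07 FPKM in WT against 3.39 in PTBP1_KO, and Gfra3, a receptor subunit for the neurotrophic factor artemin, had 1.65 and 1.40 FPKM. Cryba2, a crystallin gene expressed in endocrine cells, had 1.40 and 0.916 FPKM, with p = 0.148 in the authors' deposited table. Trpa1, an irritant-sensing cation channel of enterochromaffin cells, had 0.590 and 0.668 FPKM.

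Further genes of enteroendocrine function were read from 5 other lists. Of 20 other transcription factors, 18 were tested and 1, Pdx1, was called, lower in PTBP1_KO. Foxa1, a forkhead factor of the gut epithelium, had 10.6 and 11.9 FPKM. Of 14 other gut peptides, 4 were tested and none was called, and Guca2a, the guanylin gene, was at 652 FPKM in WT against 863 in PTBP1_KO (q = 0.547, the authors' deposited table). Gast, Insl5, Vip and Ppy were each listed at less than 0.05 FPKM. Nmb had 1.12 and 0.987 FPKM.

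None of the 18 tested genes of 20 for granules and exocytosis was called. Resp18 had 1.28 and 1.82 FPKM and Ddc, the decarboxylase of the serotonin pathway, had 49.1 and 43.1 FPKM. Of 19 nutrient sensors and excitability genes, 12 were tested and none was called. Lpar5 had 12.2 and 15.2 FPKM, and Ffar3, a receptor for short-chain fatty acids, had 2.71 and 1.99 FPKM. Of 17 receptors for gut hormones, 3 were tested and none was called, with Htr4, a serotonin receptor, at 1.46 and 1.58 FPKM. Of those 17, 16 were below 1 FPKM in both groups.

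Several of the 39 genes are also used by neurons, islets or mast cells, whose markers were read beside them. Of 15 markers of enteric neurons and glia, 14 were below 1 FPKM in both groups, Ret had 0.694 and 1.12 FPKM, and Nos1 and Sox10 were listed at 0 in both groups. They summed to 2.99 FPKM in WT and 3.19 FPKM in PTBP1_KO. All 10 pancreatic markers were below 1 FPKM, Ins1, Ins2, Prss2 and Pnlip were listed at 0 in both groups, and the list summed to 0.549 and 0.917 FPKM, with Iapp at 0.386 and 0.837 FPKM. Mast cell genes summed to 27.4 and 40.2 FPKM, with Mcpt1 at 12.2 and 21.3 FPKM (q = 0.0957 in the authors' deposited table) and Kit at 9.20 and 8.76 FPKM. The part of mast cells in the Tph1 value was not tested. Stromal and muscle genes were all 7 below 1 FPKM and summed to 1.44 and 1.32 FPKM.

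The 39 enteroendocrine genes summed to 630 FPKM in WT and 733 FPKM in PTBP1_KO, a ratio of 1.16, beside 1.04 for the sum over all tested genes. Scaled to that sum, the ratio was 1.12. By role, the sums were 337.5 and 395.4 FPKM for peptide hormones, 197 and 229 FPKM for granins and processing enzymes, and 26.9 and 24.9 FPKM for transcription factors.

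No splicing event of the 39 genes combined an FDR below 0.05 with an inclusion level difference of 0.1 or more and 20 or more reads in the average library. Of the 66 events, 47 in 21 genes had enough reads, and 1.56% of all 53918 events with enough reads were called. Of the 47, 2 had an unadjusted p below 0.05 in the authors' MATS test and 1 an FDR below 0.05, beside 10.3% and 3.76% of all events. The largest absolute difference among the 47 was 0.081 in the authors' deposited table. No event was listed for 15 of the genes, among them Gip, Sst, Nts, Neurog3 and Neurod1. The 47 were 35 skipped exons, 3 retained introns, 3 pairs of mutually exclusive exons, and 2 and 4 events with a choice of 5' and 3' splice site.

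**Figure D5:**
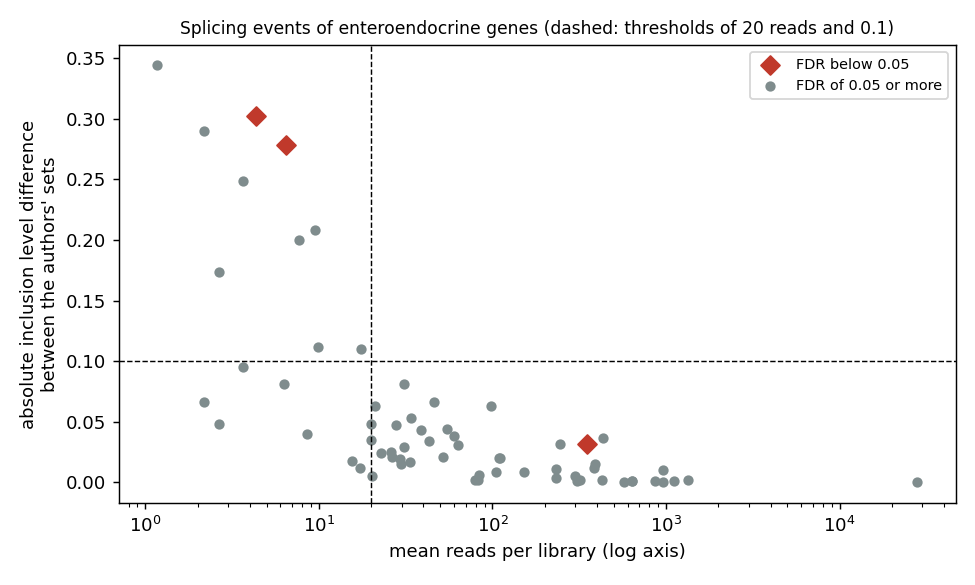
Absolute inclusion level difference between the authors' sets of libraries against mean reads per library on a log axis, for 66 events of 24 enteroendocrine genes, with diamonds for an FDR below 0.05. No event lies above 0.1 to the right of 20 reads, and the diamond at 350 reads is the exon of Chga.

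Coding exons that were alternatively used are printed as they lie in GENCODE M21 transcripts on mm10. They show local choices within the precursors and not whole transcripts. Chga exon 2 (chr12:102555885-102555931, plus strand) and Tac1 exon 4 (chr6:7557216-7557260, plus strand) are whole cassette exons and have no capitals. In Pyy (chr11:102106967-102107056, minus strand) capitals mark the 6 bases between a pair of 5' splice sites, and in Sct (chr7:141278618-141278722, minus strand) the 7 bases between a pair of 3' splice sites.
Chga: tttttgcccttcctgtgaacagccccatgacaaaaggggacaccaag
Tac1: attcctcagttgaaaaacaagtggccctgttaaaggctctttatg
Pyy: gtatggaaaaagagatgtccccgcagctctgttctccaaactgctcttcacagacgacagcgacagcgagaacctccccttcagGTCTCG
Sct: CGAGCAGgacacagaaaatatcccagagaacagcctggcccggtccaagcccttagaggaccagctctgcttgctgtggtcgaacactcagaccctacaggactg

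The Chga exon was the event with the FDR below 0.05. In the authors' deposited table the difference was 0.032 with FDR = 0.0323. Over all libraries the inclusion level was 98.1%, and single libraries ranged from 94.1% to 100%. Reads that skip the exon numbered 0 to 12 per library, beside 169 to 540 that include it. The exon is 47 nt long, so its loss shifts the reading frame.

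The Tac1 exon 4 event with most reads, a mean of 390.0 per library, held reads that include and reads that skip the exon in every library. Its inclusion level over all libraries was 54.8%, from 48.5% to 61.4% in single libraries, with p = 0.730 in the authors' deposited table. A second event listed for the same exon, with a mean of 79.7 reads per library, had an inclusion level of 98.6%, from 95.4% to 100%. The 45 nt keep the frame, and the form that lacks exon 4 alone is known as gamma preprotachykinin. The event does not show whether more distant exons were present in the same transcripts. In Pyy the longer exon made up 28.3% of the forms, from 24.2% to 34.5%, with p = 0.941 in the authors' deposited table. The 6 bases keep the frame.

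In Sct the exon with the additional 7 bases made up 79.2%, from 74.9% to 84.9%, with p = 0.120 in the authors' deposited table. The 7 bases do not keep the frame. A pair of retained intron events of Sct (chr7:141278618-141278934) had inclusion levels of 35.6% and 11.4%, with p = 0.205 and p = 0.893 in the authors' deposited table. None of these Sct events passed the test between the authors' sets of libraries.

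A non-coding 43 nt exon in the 5' untranslated region of Gcg (chr2:62482317-62482359, minus strand) had the other p below 0.05. Its inclusion level was 9.15% over all libraries and 5.08% to 14.1% in single libraries. In the authors' deposited table the difference was 0.037 with p = 0.0340 and FDR = 0.414. The other 2 Gcg exons listed had inclusion levels of 100.0% and 99.9% over all libraries.

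Over all 21 genes with enough reads, 28 of 35 skipped exons had an inclusion level above 95%. An alternative 3' splice site of Vwa5b2 (chr16:20604222-20604451, plus strand) had 57.1%, with p = 0.303 in the authors' deposited table. A 711 nt segment of Rimbp2 (chr5:128781841-128782551), listed as a skipped exon but with no GENCODE M21 exon of the same ends, had 73.6%, with p = 0.862 in the authors' deposited table. A coding exon of Slc18a1 had 87.0% (chr8:69040582-69040701), with p = 0.427 in the authors' deposited table. The 2 events that passed the FDR and difference thresholds without the read minimum lie in Vwa5b2, with means of 4.33 and 6.50 reads per library. Without the read minimum, 1.88% of all 61715 events passed both thresholds.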

How the data were processed

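Messenger RNA of crypt cells was read in 6 libraries, grouped by sample title. The submitters' processing notes name, on build mm10, Cuffdiff, Cufflinks, STAR 2.6.1d, Trimmomatic 0.38 and bcl2fastq 2.20; the MATS version is not given in the sources used here. The FPKM values, 1 per group, were made by the authors, as were the log2 fold changes, per the file headers. The p-values, q-values and FDR are the authors' deposited ones, and Benjamini-Hochberg adjustment of the gene p-values over 15460 tested genes gave the gene q-values to within 5.01e-07. The splicing tables hold reads, an inclusion level difference (a score set by the authors) and other values, per the file headers. Another 10 columns, of inclusion levels, were left unused, and inclusion was computed from reads divided by effective lengths.

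A gene was called at q below 0.05. List medians use log2((PTBP1_KO + 1)/(WT + 1)). RPM values are reads scaled to each library's total in the skipped exon table. Every one of the 39 genes was to be described, with called genes and the largest rise and fall of each other list at 1 FPKM or more. For splicing, the rule was every called event and otherwise each gene's event of smallest p with enough reads; of these, the events of Chga, Gcg, Pyy, Sct (3' splice site) and Vwa5b2 (3' splice site) are described. Genes and events described outside this rule, among them the exons of Tac1, Rimbp2 and Slc18a1 and the retained introns of Sct, were chosen after their values were seen. The genes and lists were chosen with earlier results of these data known.

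Of the 39 identifiers, 38 matched GENCODE M21 with their version and 39 without it. Exons of 8 (Pcsk1n, Ghrl, Vwa5b2, Nkx2-2, Neurog3, Neurod1, Rimbp2 and Syp) overlap a gene on the opposite strand, and those of Neurod1 also one on the same strand. The labels name a stranded kit, and whether counting used strand is not given in the sources used here. The software was pandas 2.3.3 and numpy 2.4.6 under Python 3.11.15, with matplotlib 3.10.9 for plots, and the calling and median steps were tested on simulated data. Thresholds, pseudocounts, filters, scaling and read minimums were varied. The result of 1 further list of another cell type is not reported here.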

Additional observations from a re-analysis of the deposited data

How the results depend on the processing

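Of the 3 genes called, 0 passed q below 0.01, and no tested gene could. The lowest q in the authors' deposited table rounds to 0.0125, at its smallest p of 5e-05, which 62 genes share, Gcg among them. Of all 39 genes, 4 had an unadjusted p below 0.05, the fourth being Reg4. Requiring 1 FPKM in the higher group left 2, without Rims2. The median log2 ratio of the 39 genes was 0.12 with a pseudocount of 0.1 and 0.035 with a pseudocount of 5. By arithmetic, a larger pseudocount makes each log2 ratio smaller in size, most so for genes of low level. The count of changed splicing events went from 0 to 1, the Chga exon, when no minimum difference was required. Of 156 values of single genes under other pseudocounts or centring, 155 kept their sign, and the exception was Lmx1a after centring. A pseudocount added to both groups cannot change the sign of a log2 ratio, so only the centred values could differ in sign. The pseudocount of 1 for single genes was added after the data were seen. The other alternatives for the counts, the median and the summed FPKM stayed within 1.5 times of the reported values. No paired analysis was possible because the gene table holds 1 value per group and the splicing tables name no genotype. For the same reason no library could be left out. The depth behind the FPKM values is unknown. Rims2, Pcsk1n, Ucn3, Lmx1a and Trpa1 were below 1 FPKM in both groups.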

Other observations

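RPM of the event with most reads were compared by eye across genes, in the same order of libraries, 3 of the first set and then 3 of the second, with no genotype stated. Gcg fell into 2 clusters, with 41.6 and 39.9 in 2 libraries and 18.2, 21.6, 19.3 and 20.5 in the other 4. Tac1 had 9.75, 14.9 and 11.9, then 10.5, 9.28 and 9.90, and its 2 highest libraries were those of Gcg. Chga had 8.75, 13.9 and 15.1, then 13.9, 12.2 and 9.17. Reg4 had 24.4, 36.8 and 61.7, then 43.6, 39.4 and 19.2. Ghrl had 15.5, 17.4 and 15.9, then 13.6, 17.5 and 17.3, and showed no such clusters. Sct had 7.71, 9.99 and 7.89, then 11.1, 9.09 and 5.61. These libraries are not replicates of a stated group, so no mean or test is given.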
